A study of Phyllostachys violascens with 18 samples.

Results

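Young leaves of the bamboo Phyllostachys violascens were compared between the variant ‘Flavistriatus’ and the typical plant, with 3 libraries a side, described across every gene with enough counts. The 6 young libraries were chosen by their titles from 18 in all, which also cover immature and mature leaves of both plant types, with 3 libraries in each of 6 groups. The plants grew in a greenhouse, no treatment is named, and the study was set up around leaf colour. The titles speak of leaves and the tissue field of culms, and the titles were followed. Whether the 3 libraries of a group stem from different plants is not stated, so every p-value measures the spread between these samples only, which may be technical.

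A leaf turns green as its plastids become chloroplasts. Chlorophyll is then made from a tetrapyrrole ring, antenna proteins bind it to catch light, and carotenoids carry off energy that the photosystems cannot use. In young tissue, pigment that is not yet bound or energy that is not yet used can give reactive oxygen, and plants hold stress proteins, breakdown enzymes and signalling proteins that act under that load. Nuclear genes for these parts are switched together during greening, so a leaf colour variant is a place to look at them.

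Total counts were 53820115 to 58374889 in the typical and 49718241 to 53536222 in the variant young libraries. Levels in single libraries are given as CPM, the count relative to the library total after scaling by TMM, which evens out the libraries' make-up. Gene names are descriptions in the deposited table, taken from other plants, and 37595 of its 42520 genes were tested. Green-leaf markers were present, with 24 of 27 chlorophyll a-b binding genes above 1 FPKM (fragments scaled by gene length and by library total) in both young groups. The 2 genes described as Rubisco small chain were listed at 0 in all typical young libraries and at no more than 0.171 FPKM in sum in the variant. Another 4 genes, described as Rubisco small subunit, were high instead, the highest (PH02Gene30287) at 518 FPKM in typical and 457 in variant leaves. Summed FPKM of 24 genes for dividing cells (histone H4, cyclin-B, PCNA) spanned 948 to 1210 in typical and 419 to 1130 in variant libraries. The lowest of these was variant young 1, in which histone and replication genes took 0.302% of counts, against 0.592% to 0.838% in the other 5 young libraries. Summed FPKM of 18 homeobox knotted-1 genes was 211 to 238 in typical and 263 to 356 in variant libraries. That of 51 xylem genes was 263 to 326 and 197 to 271, and that of 4 phloem genes 26.4 to 30.9 and 26.9 to 30.1. The part of these shifts in the results below was not tested.

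The quasi-likelihood test of edgeR called 70 genes in young leaves, 0.186% of those tested, with p-values adjusted over all of them by Benjamini and Hochberg and a threshold of 0.05. Its spread was estimated from all 18 libraries in 6 groups, so the spread within immature and mature leaves enters these p-values. Of these, 60 were higher in the variant (0.16% of tested genes) and 10 lower (0.0266%). The 3 variant libraries lay apart from the 3 typical ones for all 70. Of the 60 higher genes, 52 were more than 1 log2 unit higher. A protein name was given for 54 of the 70. The called genes fell into 2 unlike sets: lower genes that were mostly well counted and lay close together on scaffold 14, and higher genes of many kinds spread over the genome. How many genes passed depended on single libraries. Without typical young 1, 2 or 3 the number was 114, 11 or 5, and without variant young 1 or 3 it was 8 or 27. It was 25 to 28 without one or another variant immature library, 34 without typical mature 2, 42 or 43 without variant mature 1 or 2, 115 without typical mature 1 and 163 without variant mature 3. With libraries that were much alike summed (typical young 2 and 3, typical mature 2 and 3, all 3 variant immature), edgeR called 0 genes, with 1293 at a raw (unadjusted) p under 0.05. From the single libraries, DESeq2 called 501. All 70 genes kept their direction in all 29 of these and other fits that gave them a value.

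**Figure D1:**
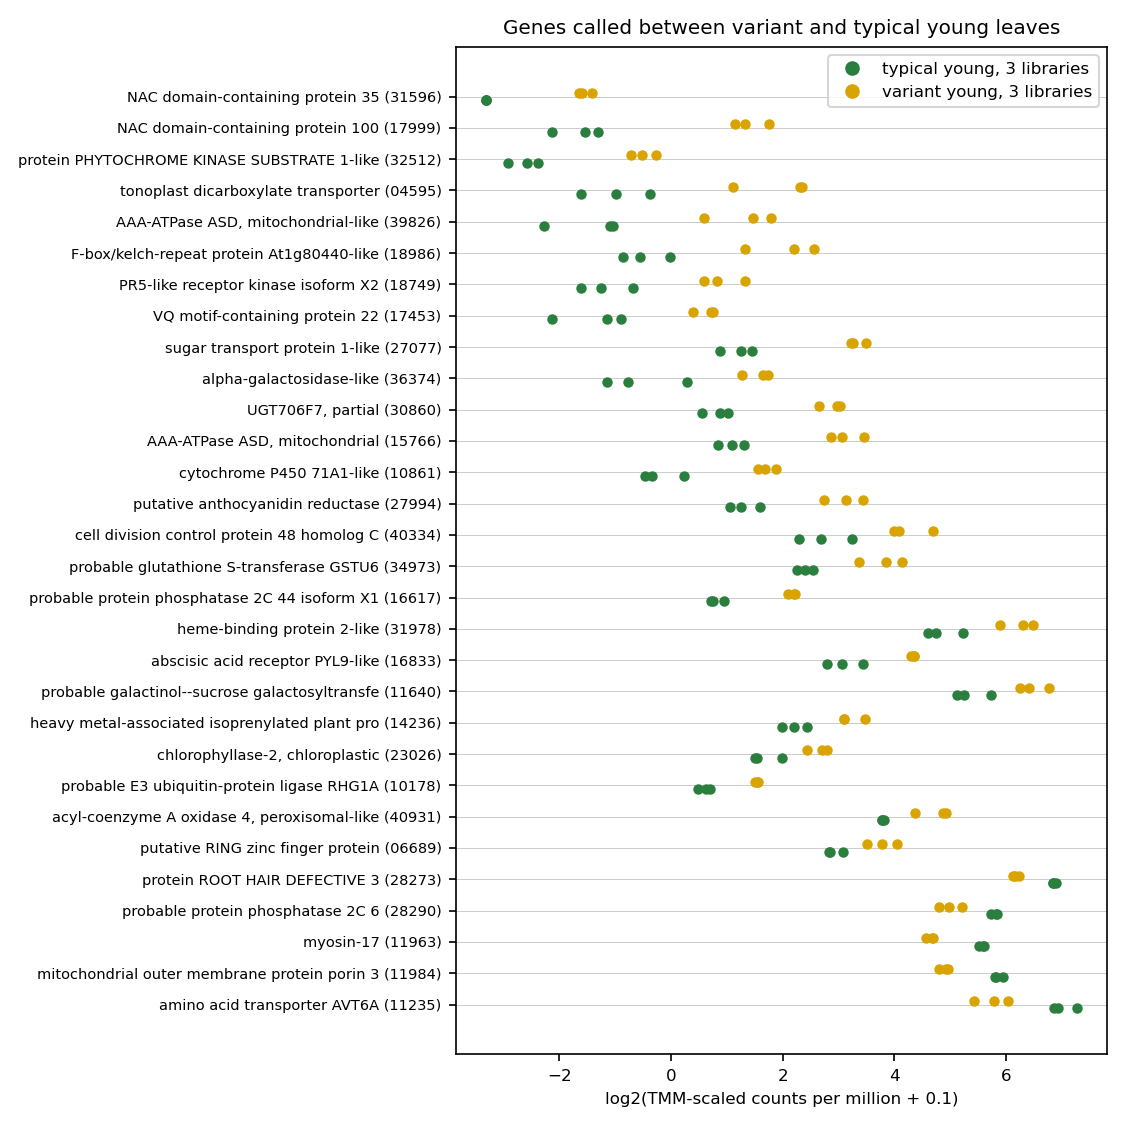
Each row is one of the 30 called genes of smallest adjusted p that carry a protein name, with the last digits of its gene ID, and each point is a young library as log2 of the TMM-scaled CPM plus 0.1. The variant points lie to the right of the typical ones in 25 rows and to the left in the 5 lowest rows, and in no row do the groups overlap.

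Of the 10 genes called lower, 7 lay within 2425 kb of scaffold 14. Their neighbours were lower too. Along the scaffolds, the running median of the log2 difference over 15 genes (genes with a mean of at least 100 counts in the 6 young libraries) passed 0.5 in either direction in 1 stretch among 25604 windows. That stretch, from 33149483 to 35574173 on scaffold 14, held 49 consecutive window centres, with running medians from -0.79 to -0.52. Outside it and its flanks of 2 Mb, the running median stayed between -0.42 and 0.49. With 21 genes a window the same 49 centres passed. With 11 genes they passed again, along with 1 lower stretch of 7 centres on scaffold 5 and 11 higher stretches of 1 to 4 centres. The run was picked on these young values, so its level in young leaves is a description with no test.

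In the run, 48 of 49 genes had a log2 difference below 0, and 39 had all variant below all typical libraries. Of all tested genes 12.8% did so, and of the others with a mean of at least 100 counts 15.6%. The median was -0.68 with quartiles of -0.84 and -0.57, which puts variant leaves at 0.626 times the typical level, with quartiles of 0.561 and 0.673. The differences were much alike between members: 38 of 49 lay between -0.5 and -1. Among the other 26398 genes with this mean count 53.8% were below 0, the median was -0.03 and the quartiles were -0.21 and 0.19. At a raw p under 0.05, 31 of the 49 were lower and 0 were higher, where 1.97% of all tested genes were lower and 5.09% higher. The 33 genes in the 2 Mb before the run had a median of 0.04 and the 36 in the 2 Mb after it one of -0.14. All told 69 genes of the table lay in the run, 67 were tested, and 56 of these had a difference below 0.

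**Figure D2:**
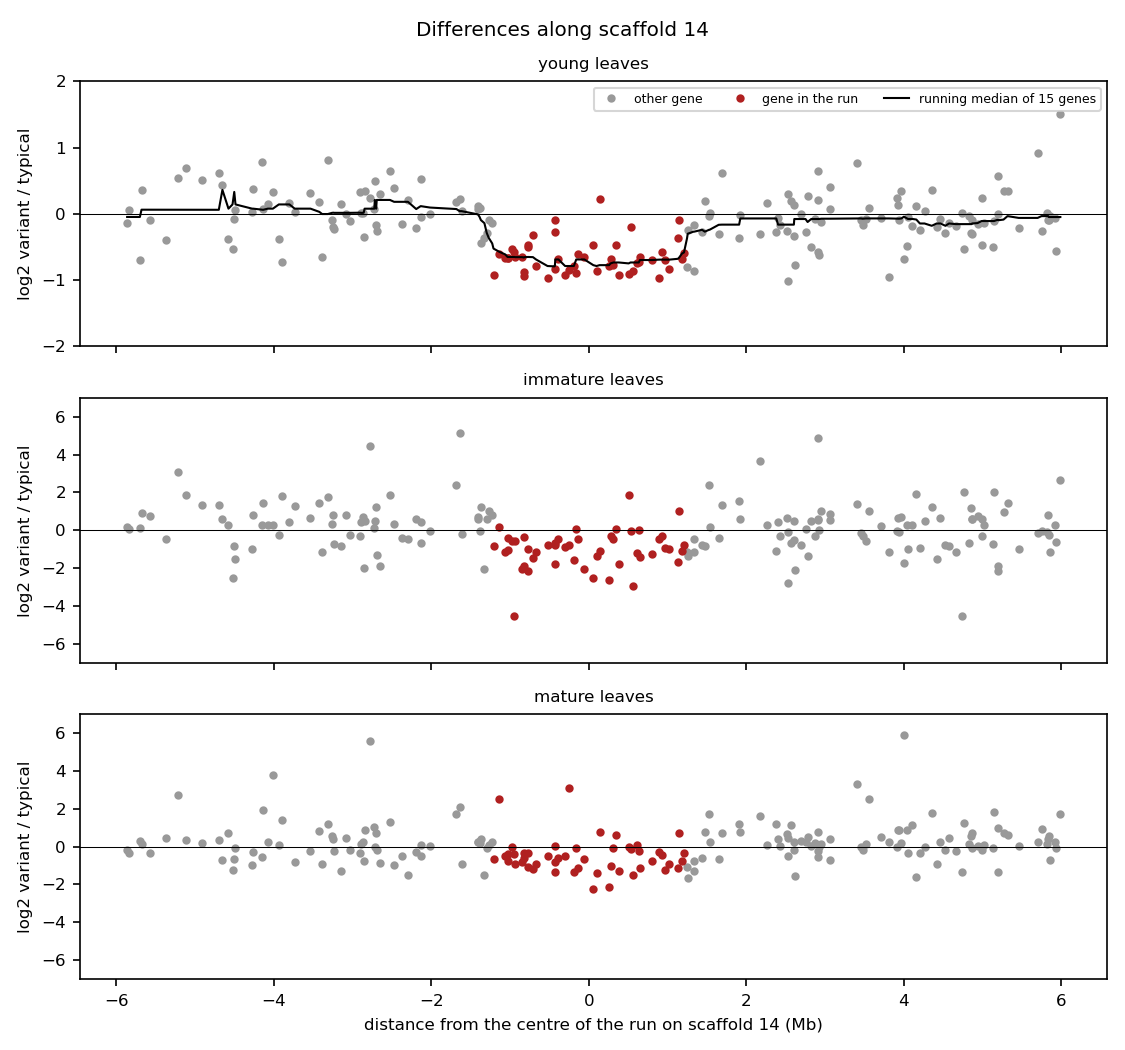
Log2 ratio of variant to typical leaves for single genes along scaffold 14, by distance from the centre of the run, at the 3 stages (the young panel has a narrower vertical axis). The 49 genes of the run are red, other genes with a mean of at least 100 young counts are grey, and the line is the running median of 15 genes in young leaves, which drops below -0.5 only over the run.

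PH02Gene22158, the last gene before the run, differed by -0.14, and the first within it, PH02Gene22159 for a chloroplast pentatricopeptide repeat protein, by -0.93. On the far side 2 genes beyond the end were low as well, PH02Gene11996 at -0.80 and PH02Gene12001, an AFC3 kinase, at -0.87. The next ones, PH02Gene12002 for an aldehyde dehydrogenase and PH02Gene12005, were at -0.16 and -0.27.

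The members have unlike functions. Mitochondrial outer membrane protein porin 3 (PH02Gene11984, 35258248), a channel for metabolites, had 56.3, 62.0 and 55.6 CPM in typical and 31.0, 30.5 and 27.9 in variant libraries. It fell by 0.96 ± 0.12 log2 units (± SE, edgeR, adjusted p = 0.0057) and was called without each of the 18 libraries in turn. Myosin-17 (PH02Gene11963, 34728954), a motor that moves organelles along actin, had 45.8, 48.9 and 47.9 CPM against 25.6, 26.0 and 23.7. The groups of both genes lie far apart for the spread within them.

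ROOT HAIR DEFECTIVE 3 (PH02Gene28273, 33973012), which fuses endoplasmic reticulum membranes, had 115, 120 and 115 CPM in typical and 70.3, 75.5 and 71.3 in variant libraries (log2 difference -0.69 ± 0.11, edgeR adjusted p = 0.0211). Probable protein phosphatase 2C 6 (PH02Gene28290, 34617537) had 57.4, 53.0 and 56.3 against 37.0, 27.8 and 31.6. The subunit d of the V-type proton ATPase (PH02Gene11979, 35167209), part of the vacuole's proton pump, had 67.1, 64.1 and 62.3 against 44.8, 39.0 and 36.1. These 3 genes share a ratio near that of the whole run, and were called in 14, 7 and 3 of the 18 fits that left out a library. Developmentally-regulated G-protein 2 (PH02Gene22182, 33832362) had 23.7, 28.4 and 24.4 against 10.3, 17.5 and 11.3 CPM. The IAA-amino acid hydrolase ILR1-like 1 (PH02Gene22162, 33296819), of an enzyme family that frees auxin from its conjugates, had 49.6, 49.6 and 48.2 against 33.9, 31.0 and 28.6. Both passed only narrowly, as did the ATPase subunit, at an adjusted p of 0.0473, and were called in 3 of those 18 fits.

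Members that were not called include a step of carotenoid synthesis. Lycopene epsilon cyclase (PH02Gene28284, 34417034), which leads towards lutein, differed by -0.47 in young leaves with overlapping groups (edgeR adjusted p = 0.982), by -2.54 in immature (adjusted p = 0.000491) and by -2.23 in mature leaves (adjusted p = 0.00314). Mitochondrial FTSH 5 (PH02Gene22184), a membrane protease, was at -0.83, the large chain of chloroplast carbamoyl-phosphate synthase (PH02Gene22172) at -0.88, and SCD1 (PH02Gene28275), which acts in membrane traffic, at -0.92. The exceptions were few among well-counted genes: PH02Gene28289, described as ANTAGONIST OF LIKE HETEROCHROMATIN PROTEIN 1, was at 0.23, and PH02Gene11993, PH02Gene22186 and PH02Gene11971 at -0.09, -0.10 and -0.19. The value of PH02Gene28289 rests on variant young 1, at 11.3 CPM. Variant young 2 and 3 had 2.103 and 2.881, below the lowest typical library at 4.227. PH02Gene22186 likewise had 7.409 CPM in variant young 1. Its variant young 2 and 3 had 4.055 and 4.961, below typical libraries at 5.685 to 6.081. In PH02Gene11971 variant young 1 was instead the lowest library, at 9.034 CPM. All genes of this paragraph were chosen after their values were seen.

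The run was also low in immature and mature leaves. Its bounds were set on young values only, but the region was taken up with earlier results of these data known, so the later stages are not fully independent of the choice. In immature leaves 33 of the 49 genes were called lower and 1 higher, and in mature leaves 23 were called lower and 2 higher. Over all tested genes, 23.1% were called lower and 21.7% higher in immature leaves, and 9.7% lower and 14.9% higher in mature ones. Among other genes with a mean of at least 100 young counts, 26.4% were called lower in immature and 12.3% in mature leaves. The run's median was -0.94 in immature leaves, a ratio of 0.521, and -0.60 in mature leaves, a ratio of 0.659. Differences between members were wider at these stages, with quartiles of -1.49 and -0.45 in immature and -1.06 and -0.25 in mature leaves. The difference between plant types departed from that of young leaves in 15 of 49 genes for immature leaves and in 5 for mature leaves, where 26.3% and 9.96% of all tested genes did so.

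Each variant library held the run low. Against the typical mean of the same stage, the median log2 ratio was -0.64, -0.63 and -0.72 in the young variant libraries, -0.89, -0.83 and -0.90 in the immature ones and -0.56, -0.58 and -0.78 in the mature ones. The 9 typical libraries lay between -0.05 and 0.05. The flanks of 2 Mb on either side, with 69 genes, lay between -0.08 and 0.03 in young variant libraries and between 0.04 and 0.32 in the later ones. Leaving out any 1 library kept the young median between -0.70 and -0.67. The deposited FPKM gave -0.58 with a pseudocount of 1, a scale that understates changes of low genes.

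**Figure D3:**
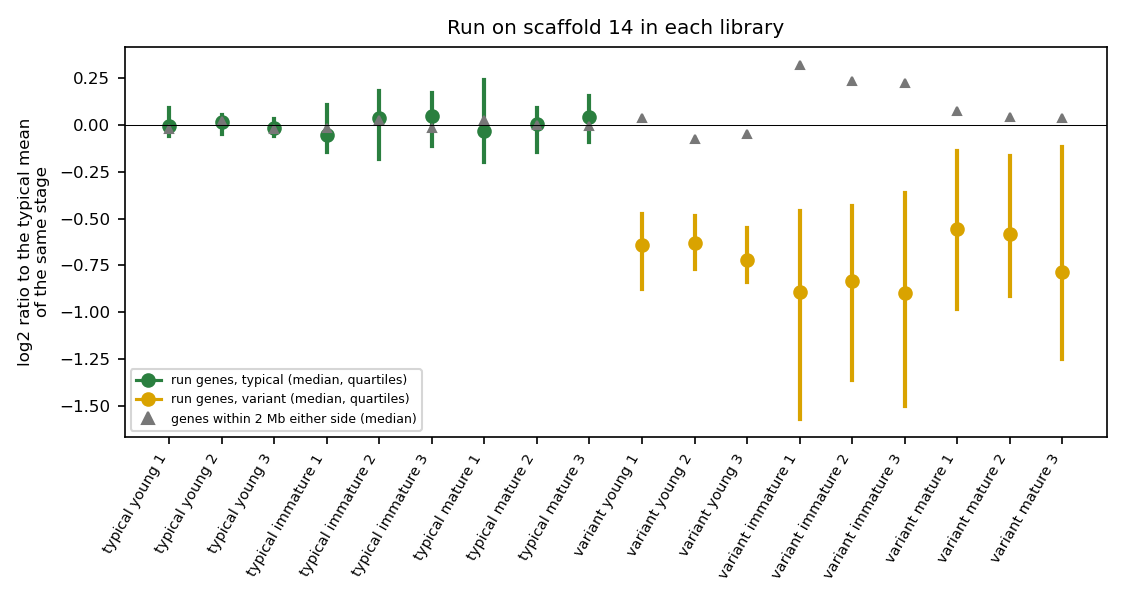
Median (point) and quartiles (bar) over the 49 genes of the run of the log2 ratio to the typical mean of the same stage, for each of the 18 libraries, with the median of 69 flanking genes as grey triangles. The 9 typical libraries lie between -0.05 and 0.05 and the 9 variant libraries between -0.90 and -0.56, with no overlap.

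Elsewhere, 3 genes were called lower. The vacuolar amino acid transporter AVT6A (PH02Gene11235, scaffold 8), whose Arabidopsis relative exports amino acids from the vacuole, had 156, 117 and 122 CPM in typical and 42.9, 55.0 and 65.4 in variant libraries. A gene described as hypothetical protein BRADI_4g06300v3 (PH02Gene27670, scaffold 11) had 73.9, 64.9 and 58.4 against 39.9, 37.3 and 35.9. ENHANCED DISEASE RESISTANCE 4-like (PH02Gene27613, scaffold 19) was listed at 19, 4 and 25 counts in typical libraries and at 0 in all 3 of the variant, so no fold is given.

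Among the higher genes, 4 were NAC factors, plant transcription factors of which many act in senescence and stress. NAC domain-containing protein 100 (PH02Gene17999) had the smallest adjusted p of all genes. Its levels were 0.303, 0.129 and 0.243 CPM in typical and 3.27, 2.41 and 2.11 in variant libraries, a log2 difference of 3.51 ± 0.37 (edgeR, adjusted p = 0.00298). It was called without each of the 18 libraries in turn, and higher again in immature (2.85) and mature leaves (2.26). A second NAC100 (PH02Gene44182) had 1.92, 1.495 and 1.29 against 5.93, 5.75 and 4.11 CPM, and was likewise called at both later stages, at 2.33 and 2.21. NAC67-like (PH02Gene29164) had 2.41, 0.964 and 0.988 against 5.57, 3.79 and 14.1 CPM, the widest spread of the 4. NAC35 (PH02Gene31596) was listed at 0 in the typical libraries and at 14, 13 and 16 counts in the variant. Across 102 tested NAC genes, 25 were higher and 1 lower at a raw p under 0.05, and the median was 0.50, against a median of 0.00 over all genes. At that p 5.09% of all tested genes were higher and 1.97% lower, the shares to set beside the counts of the lists that follow. On deposited FPKM plus 1, a scale that shrinks changes of low genes, the NAC median was 0.19.

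Of 123 tested WRKY factors, which act in defence, 0 were called, and 24 were higher and 1 lower at a raw p under 0.05, with a median of 0.38, or 0.06 on FPKM plus 1. WRKY 60 (PH02Gene04800) had 6.57, 3.86 and 2.77 CPM in typical against 10.8, 7.89 and 14.8 in variant libraries (edgeR adjusted p = 0.109). For 105 ethylene-responsive factors the counts were 12 higher and 1 lower, with a median of 0.29, or 0.13 on FPKM plus 1. Of 184 homeobox, TCP and YABBY genes 18 were higher and 3 lower, with a median of -0.01. The homeobox protein BEL1 homolog (PH02Gene31820) was called, with 22.8, 13.7 and 14.8 against 49.0, 25.2 and 38.8 CPM, but in only 4 of the 18 fits that left out a library. BEL1 proteins pair with knotted-type homeodomain proteins, whose summed level was also higher in the variant libraries. BEL1-like homeodomain protein 1 (PH02Gene22684) missed the threshold at an adjusted p of 0.0502, with 10.4, 6.56 and 8.31 against 18.1, 13.6 and 15.7 CPM.

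Some called genes encode receptor kinases. The PR5-like receptor kinase (PH02Gene18749), whose outer domain is like a pathogenesis-related protein, had 0.522, 0.225 and 0.319 CPM in typical and 2.40, 1.67 and 1.40 in variant libraries (log2 difference 2.35 ± 0.29, edgeR adjusted p = 0.0057). Neighbouring genes on scaffold 5 described as receptor-like kinase At4g00960 (PH02Gene30454 and PH02Gene30453) were both called, at 1.34 and 1.53. They may share reads. Wall-associated receptor kinase 5 (PH02Gene46901) was listed at 0 in typical libraries and at 7, 4 and 14 counts in the variant. Among 854 tested receptor-like kinases 4 were called higher and 0 lower, where 0.16% of all tested genes were called higher, and the median was 0.00, that of all genes.

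Hormone genes were called singly. The abscisic acid receptor PYL9-like (PH02Gene16833), of a family that blocks phosphatases once the hormone binds, had 8.24, 6.88 and 10.7 CPM in typical and 20.5, 19.5 and 20.4 in variant libraries. Protein phosphatase 2C 44 (PH02Gene16617) had 1.84, 1.58 and 1.54 against 4.19, 4.59 and 4.52, with almost no spread within the variant. The list of 145 tested genes matched to abscisic acid by description had a median of 0.13, with 2 called higher and 1, the phosphatase of the run, called lower. It takes in protein phosphatases 2C such as 44 and 11, whose descriptions do not say whether they act with that hormone. Over all tested genes 0.16% were called higher and 0.0266% lower. Strigolactone esterase D14 (PH02Gene11902), the receptor of a hormone that holds back branching, had 29.4, 20.4 and 18.9 against 51.3, 55.1 and 53.7 CPM. Auxin-repressed 12.5 kDa protein (PH02Gene21281) had 60.2, 47.9 and 46.1 against 177, 178 and 130. TIFY 11d (PH02Gene17761), of the family that holds the jasmonate repressors, had 5.997, 3.36 and 4.18 against 16.6, 7.79 and 17.9. VQ motif-containing protein 22 (PH02Gene17453), whose Arabidopsis relative represses jasmonate defence, had 0.438, 0.129 and 0.350 against 1.21, 1.58 and 1.55. In the 18 fits that left out a library, PYL9-like and phosphatase 2C 44 were each called in 16 and VQ 22 in 10. D14 was called in 6 of them, the auxin-repressed gene in 5 and TIFY 11d in 4. Of 77 tested jasmonate genes 10 were higher and 1 lower at a raw p under 0.05, with a median of 0.06.

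Calls also fell on genes for light, plastid signalling and chlorophyll breakdown, a grouping that is none of the 32 lists. Of 52 tested plastid regulators 1 was called higher and of 15 breakdown genes 1, where 0.16% of all tested genes were. EXECUTER 2 (PH02Gene13293), which in Arabidopsis works with EXECUTER 1 in signalling singlet oxygen from the chloroplast to the nucleus, had 67.8, 62.9 and 67.7 CPM in typical and 130, 98.0 and 107 in variant libraries (log2 difference 0.76 ± 0.14, edgeR adjusted p = 0.0473). It was at -0.12 in immature leaves and called lower, at -0.44, in mature ones. PHYTOCHROME KINASE SUBSTRATE 1-like (PH02Gene32512), of a family that in Arabidopsis acts in bending towards light, had 0.067, 0.032 and 0.091 against 0.729, 0.505 and 0.597 CPM. Chlorophyllase-2 (PH02Gene23026), an enzyme that cuts chlorophyll from its phytol chain, had 3.88, 2.73 and 2.81 against 5.30, 6.85 and 6.44. EXECUTER 2 was called in 6 of the 18 fits that left out a library, PHYTOCHROME KINASE SUBSTRATE 1-like in 14 and chlorophyllase-2 in 12.

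Other enzymes of chlorophyll breakdown were not called. Pheophytinase (PH02Gene22037), which removes phytol once magnesium is gone, had 3.88, 0.820 and 1.49 CPM in typical and 8.29, 8.31 and 11.6 in variant libraries (log2 difference 2.19, edgeR adjusted p = 0.131). Pheophorbide a oxygenase (PH02Gene03620), which opens the ring, had 4.38, 3.84 and 4.73 against 8.09, 6.80 and 5.88. STAY-GREEN LIKE (PH02Gene39882) had 19.1, 17.7 and 15.7 against 29.0, 20.3 and 22.8. Across the 15 tested breakdown genes 11 were above 0, 3 were higher and 0 lower at a raw p under 0.05, and the median was 0.24. Outside the run, 53.8% of genes with a mean of at least 100 young counts were below 0.

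Early light-inducible proteins, relatives of the antenna that bind pigment for a time under strong light or during greening, had higher levels in each variant than in each typical young library, but were not called. The table held 5 such genes, all on scaffold 10 between 31380028 and 32572153, and 4 of them were among the 10 largest uncalled differences whose groups do not overlap. PH02Gene44636 had 9.38, 8.79 and 4.91 CPM in typical and 80.5, 104 and 121 in variant libraries, 13.2-fold higher (log2 difference 3.73 ± 0.78, edgeR adjusted p = 0.0826). PH02Gene44635 had 10.1, 5.51 and 4.99 against 88.6, 88.9 and 117 CPM (14.3-fold, adjusted p = 0.0905). PH02Gene44634 had 2.41, 2.15 and 1.09 against 19.2, 23.1 and 27 (12.3-fold, adjusted p = 0.114). These 3 genes are neighbours with the same description and may share reads. PH02Gene20320, a megabase away, had 0.522, 0.739 and 0.486 against 8.92, 10.2 and 13.3 (18.5-fold, adjusted p = 0.111). The fifth, PH02Gene50347, was listed at 0 in typical libraries and at 0.099, 0.387 and 0.341 CPM in the variant. That family was singled out after its values were seen.

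At a threshold of 0.05 the edgeR test called none of the 5, although 4 had a raw p under 0.001. The fits to deposited FPKM with limma, pseudocount 1, gave those 4 adjusted p-values of 0.00621 to 0.0161, and edgeR with the 6 young libraries alone 0.0098 to 0.0137. DESeq2 called 2 of the 4 and gave no adjusted p for the other 2. Further settings did not call them: scaling by RLE size factors gave 0.0902 to 0.124 and near-alike libraries summed 0.875 to 0.983. Each was called in 2 of the 18 fits that left out a library, where the adjusted p reached 0.443 to 0.575. Both later stages had them higher as well. In immature leaves the same 4 genes were called at 4.43 to 5.62 log2 units, with PH02Gene44636 at 776, 780 and 823 CPM against 29.0, 13.2 and 6.30. In mature leaves they were called at 2.23 to 3.79, with adjusted p-values of 0.00486 to 0.0488. The spread was wide there, with PH02Gene44636 at 18.1, 2.98 and 1.18 CPM in typical and 45.4, 86.6 and 121 in variant libraries. For PH02Gene44634 the mature groups overlapped, with typical mature 1 at 12.3 and variant mature 1 at 9.87 CPM. PH02Gene50347 was called in immature leaves (adjusted p = 0.00195) and not in mature ones (adjusted p = 0.202). For none of the 5 did the difference between plant types depart from that of young leaves at either stage (adjusted p from 0.18 to 0.968).

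**Figure D4:**
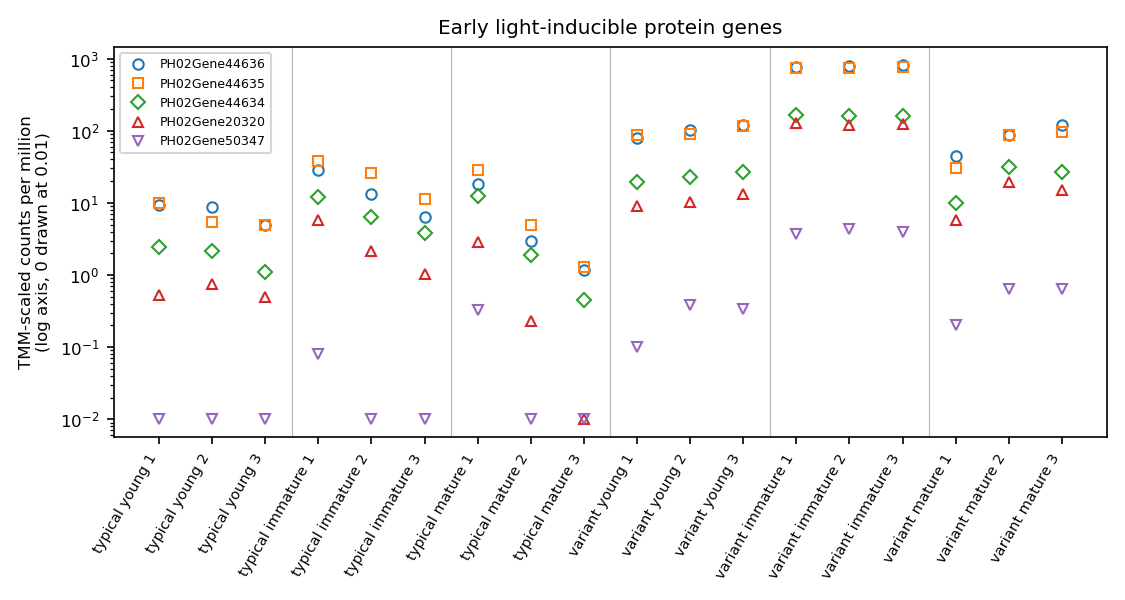
TMM-scaled CPM of the 5 early light-inducible protein genes in each of the 18 libraries, on a log axis with values of 0 drawn at 0.01. The variant libraries lie above the typical ones in young leaves for all 5 genes, and highest in immature leaves, where PH02Gene44636 reaches 823.

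Antenna genes were mostly below 0 and none was called. Of 31 tested antenna genes 26 were below 0, 15 had all variant below all typical libraries, and 0 were called, with 4 lower and 1 higher at a raw p under 0.05 and a median of -0.66. Over all tested genes 12.8% lay apart on the lower side, and 1.97% were lower and 5.09% higher at that p. Of genes outside the run with a mean of at least 100 young counts, 53.8% were below 0. In counts, the 33 antenna genes of the table took 0.794%, 0.592% and 0.583% of the typical and 0.528%, 0.299% and 0.395% of the variant libraries. A chlorophyll a/b binding gene (PH02Gene01341) had 495, 375 and 356 CPM against 201, 81.2 and 120, and another (PH02Gene27441) 55.0, 23.0 and 30.2 against 6.27, 4.997 and 8.22. The small light-harvesting-like protein OHP1 (PH02Gene36977) went the other way, with 15.4, 13.4 and 12.3 against 26.2, 20.1 and 22.6. In these bulk samples, fewer cells with developed chloroplasts and less RNA per cell cannot be told apart.

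Photosystem and electron transport genes had a median of -0.15 over 44 tested members, and Calvin cycle and photorespiration genes one of -0.27 over 67. At a raw p under 0.05, 1 of the former was higher and 1 lower, and 3 of the latter were higher and 2 lower. Over all tested genes 5.09% were higher and 1.97% lower at that p. The 10 kDa polypeptide of photosystem II (PH02Gene08265) had 61.0, 38.1 and 44.7 CPM in typical and 18.1, 20 and 21.4 in variant libraries. In that list, oxygen-evolving enhancer protein 3-2 (PH02Gene22619) had the smallest raw p. It was higher in the variant, with 5.51, 4.40 and 5.11 against 9.63, 6.63 and 7.55. In the Calvin cycle list that was a chloroplast phosphoglycerate kinase (PH02Gene02303), also higher, with 14.2, 11.2 and 10.8 against 22.7, 16.05 and 17.9. The GLK1 factor (PH02Gene22330), which drives antenna and chlorophyll synthesis genes in other plants, had 20.3, 19.7 and 14.3 against 12.5, 7.74 and 9.12 (log2 difference -0.88, edgeR adjusted p = 0.271). Of 52 plastid regulators 1 was called higher, EXECUTER 2, where 0.16% of all tested genes were, and the median was 0.14. Plastid-type ribosomal proteins had a median of 0.35 over 63 tested genes, with 46 above 0 and none at a raw p under 0.05. Outside the run, 53.8% of genes with a mean of at least 100 young counts were below 0. Cytosolic ribosomal proteins had a median of -0.15, with 252 of 278 below 0. Of these 278, 87 had all variant below all typical libraries, where 12.8% of all tested genes did. They took 3.20% of counts in variant young 1 and 3.55% to 3.97% in the other 5.

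No gene of chlorophyll or carotenoid synthesis was called. Chlorophyll synthesis had a median of -0.00263 over 33 tested genes, with 16 above and 17 below 0. At a raw p under 0.05 that list had 3 lower and 1 higher, where 1.97% of all tested genes were lower and 5.09% higher. Inside it, the magnesium chelatase subunit ChlH (PH02Gene25454), at the first step towards chlorophyll, had 197, 134 and 128 CPM in typical and 96.6, 58.9 and 73.4 in variant libraries. Chlorophyllide a oxygenase (PH02Gene06841), on the branch to chlorophyll b, had 80.4, 61.8 and 61.9 against 49.7, 41.5 and 47.4 (edgeR adjusted p = 0.182). Protochlorophyllide reductase B (PH02Gene14847), the highest of the list per length at 140 against 114 FPKM, overlapped between groups. Of 31 tested carotenoid synthesis genes 8 had all variant below all typical libraries and 2 all above, where 12.8% and 11.2% of all tested genes did. Carotenoid synthesis had a median of 0.01 over 31 genes and cleavage one of 0.20 over 13. The lowest raw p of the former, 0.0362, was that of a zeaxanthin epoxidase (PH02Gene42507), with 20.9, 15.1 and 19.3 against 14.47, 9.69 and 13.6 CPM.

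Several called genes encode enzymes of detoxification and small-molecule metabolism. Glutathione S-transferase GSTU6 (PH02Gene34973), which joins glutathione to foreign or damaged molecules, had 5.21, 5.71 and 4.68 CPM in typical and 17.6, 10.3 and 14.3 in variant libraries (log2 difference 1.44 ± 0.18, edgeR adjusted p = 0.0057). A second GSTU6 gene (PH02Gene34961) had 17.9, 18.5 and 16.7 against 35.8, 24.8 and 30.9. Of 106 tested glutathione S-transferases 12 were higher and 0 lower at a raw p under 0.05, with a median of 0.24, a list added after its called genes were seen. Cytochrome P450 71A1-like (PH02Gene10861) had 1.08, 0.691 and 0.623 against 3.12, 2.84 and 3.58 CPM. The glycosyltransferase UGT706F7 (PH02Gene30860), of a class that puts sugars on small molecules, had 1.92, 1.37 and 1.73 against 8.02, 6.23 and 7.79. Putative anthocyanidin reductase (PH02Gene27994), which turns anthocyanidins into tannin units, had 2.91, 1.98 and 2.30 against 8.70, 10.8 and 6.61. Over 106 flavonoid and anthocyanin genes the median was 0.21, and over 155 phenylpropanoid and lignin genes 0.06. Reactive oxygen scavenging had a median of 0.07 over 63 genes with 0 called.

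Of 103 tested sugar genes 1 was called higher, and of 132 nitrogen genes 2, where 0.16% of all tested genes were. Sugar transport protein 1-like (PH02Gene27077), a proton-driven importer of hexoses, had 2.63, 2.28 and 1.73 CPM in typical and 11.2, 9.54 and 9.31 in variant libraries. The tonoplast dicarboxylate transporter (PH02Gene04595), which carries malate into the vacuole, had 0.674, 0.402 and 0.228 against 4.99, 4.85 and 2.06. NRT1/PTR family 4.3 (PH02Gene23466) had 0.455, 0.595 and 0.578 against 2.16, 2.37 and 2.18. NRT1/PTR family 5.1 (PH02Gene03383) had 2.29, 1.35 and 1.25 against 4.87, 3.62 and 5.20. Medians of the lists were near that of all genes, at 0.05 over 103 sugar genes, 0.04 over 132 nitrogen genes and 0.16 over 71 amino acid transporters. At a raw p under 0.05, 10 sugar genes were higher and 5 lower, and 9 nitrogen genes were higher and 5 lower. Of the amino acid transporters 6 were higher and 7 lower, and the only one called, AVT6A, was lower.

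Raffinose metabolism had 2 higher calls among 21 tested genes, where 0.16% of all tested genes were called higher, and a median of -0.01. That list was added after its called genes were seen, so the number of calls cannot be read as independent of the choice. Galactinol--sucrose galactosyltransferase 6 (PH02Gene11640), which makes raffinose, had 53.1, 38.1 and 34.6 CPM in typical and 109, 85.0 and 76.0 in variant libraries. An alpha-galactosidase-like gene (PH02Gene36374), of enzymes that split galactose off again, had 1.11, 0.354 and 0.486 against 3.02, 3.25 and 2.32. Galactinol synthase 2-like (PH02Gene33570) was not called, with 2.49, 1.22 and 1.44 against 0.613, 0.656 and 0.665 (adjusted p = 0.195).

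AAA-ATPases of the ASD type, proteins driven by ATP, had the highest median of the 32 lists, 0.90 over 24 tested genes, or 0.43 on FPKM plus 1. Of these, 3 were called higher, where 0.16% of all tested genes were. At a raw p under 0.05, 12 were higher and 1 lower, and 14 had all variant above all typical libraries, against 11.2% of all tested genes. PH02Gene15766 had 2.38, 1.69 and 2.02 CPM in typical and 7.19, 8.29 and 10.8 in variant libraries. PH02Gene39826 had 0.387, 0.370 and 0.106 against 2.67, 1.41 and 3.36, and PH02Gene06364 3.94, 2.09 and 3.03 against 8.21, 7.59 and 12.5. That list was made after its called members were seen, so the median cannot be read as independent of them.

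Protein turnover and peroxisomes held further single calls. The E3 ubiquitin ligase RHG1A (PH02Gene10178) had 1.52, 1.30 and 1.44 CPM in typical and 2.85, 2.81 and 2.73 in variant libraries. F-box/kelch-repeat protein At1g80440-like (PH02Gene18986), whose Arabidopsis relative marks phenylalanine ammonia-lyase for breakdown, had 0.893, 0.450 and 0.578 against 5.84, 4.49 and 2.42. CDC48 homolog C (PH02Gene40334), which unfolds ubiquitin-marked proteins, had 9.35, 6.37 and 4.82 against 16.8, 15.9 and 25.8. A RING zinc finger gene (PH02Gene06689) had 8.42, 7.12 and 7.02 against 16.5, 13.6 and 11.3. Acyl-CoA oxidase 4 (PH02Gene40931), at the first step of fatty acid breakdown in peroxisomes, had 13.6, 13.7 and 14.04 against 30.3, 29.2 and 20.5. Heme-binding protein 2-like (PH02Gene31978) had 37.4, 26.9 and 24.1 against 90.2, 59.8 and 79.0. HIPP 35 (PH02Gene14236), of a family that binds metals, had 5.29, 4.52 and 3.89 against 8.503, 11.1 and 8.52. The osmotic channel relative ERD4 (PH02Gene09632) had 39.99, 32.2 and 33.7 against 112, 86.8 and 83.8.

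Genes of dividing and growing cells gave no calls. Histone and replication genes had a median of -0.56, with 81 of 95 below 0, and cyclins and kinesins one of -0.37, with 116 of 146 below 0. Of genes outside the run with a mean of at least 100 young counts, 53.8% were below 0. Variant young 1 was the library with the lowest share of counts for both lists, and 5 of 95 histone and replication genes and 29 of 146 cyclins and kinesins had all variant below all typical libraries. Over all tested genes 12.8% did, so the first list lay below that share and the second above it. A histone H2B.2-like gene (PH02Gene47040) had 132, 160.6 and 158 CPM against 49.9, 133 and 95.8. Wall growth genes had a median of 0.07 over 131, xylem and secondary wall genes 0.00 over 85 and phloem genes 0.10 over 10. Heat shock genes split, with 10 higher and 8 lower at a raw p under 0.05 and a median of 0.19. An Hsp90 gene (PH02Gene17689) had 303, 314 and 292 against 187, 263 and 224, and a mitochondrial 24.1 kDa small heat shock protein (PH02Gene06505) 0.152, 0.193 and 0 against 2.09, 0.555 and 1.45.

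**Figure D5:**
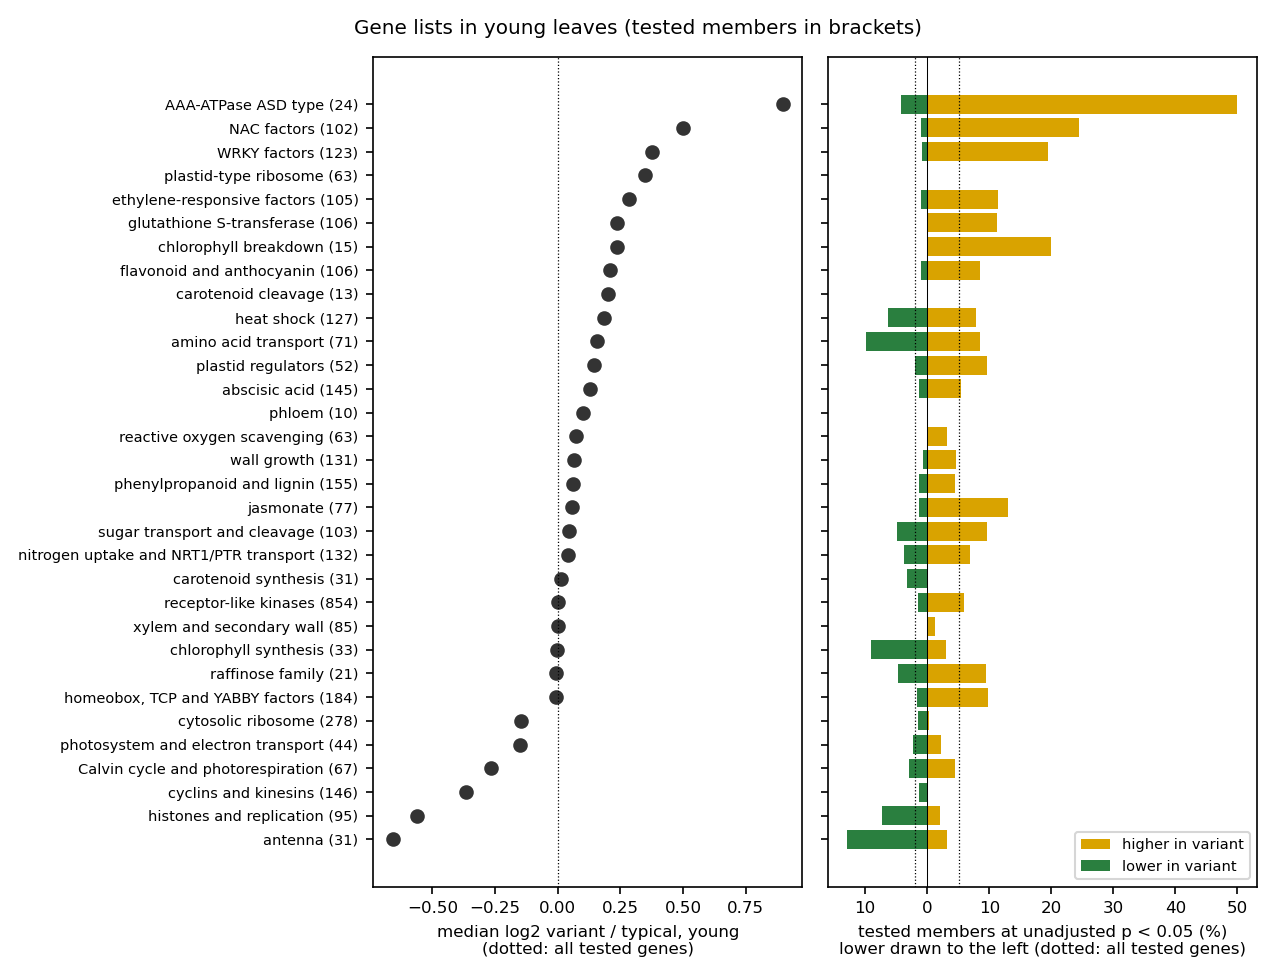
For each of 32 gene lists, the left panel gives the median log2 ratio of variant to typical young leaves and the right panel the percentage of tested members at a raw p under 0.05, higher to the right and lower to the left. Dotted lines mark all tested genes. AAA-ATPases, NAC and WRKY factors lie at the upper end, and antenna, histone and cyclin genes at the lower end.

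Called genes were followed into the later stages. Of the 60 genes higher in young leaves, 38 were called higher in immature and 32 in mature leaves, where 21.7% and 14.9% of all tested genes were. Only 4 and 2 were called in the opposite direction. Their median log2 difference was 1.70 in young, 1.42 in immature and 0.67 in mature leaves. Of the 10 lower genes, 9 were called lower in immature and 5 in mature leaves, where 23.1% and 9.7% of all tested genes were. AVT6A was called higher in mature leaves, at 0.82 (adjusted p = 0.00584). The difference between plant types departed from that of young leaves in 37 of the 60 for immature and 22 for mature leaves, where 26.3% and 9.96% of all tested genes did. These 60 were chosen for their young difference, which the comparison subtracts, so a shift to smaller differences is favoured by the choice and nothing is read from the count. Sugar transport protein 1-like was lower in immature variant leaves (-1.28, adjusted p = 0.0058), as were F-box/kelch At1g80440-like (-1.75), RHG1A (-0.67) and NAC67-like (-1.15). UGT706F7 widened to 3.94 in immature leaves and GSTU6 (PH02Gene34973) to 2.35.

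Genes with low counts could not be followed far. No gene was listed at 0 in all 3 libraries of one young group with at least 50 counts in every library of the other. The other large uncalled differences include (-)-germacrene D synthase (PH02Gene40249), which makes a volatile terpene, with 1.15, 0.579 and 0.623 CPM against 3.12, 29.5 and 4.86, and a log2 difference of 3.997 that was 2.35 without variant young 2. A CACTA transposon protein (PH02Gene24871) had 0.253, 0.643 and 0.365 against 23.6, 0.757 and 0.699, and so rests on variant young 1, without which its log2 difference was 0.79. Without a protein name, PH02Gene30438 had 0.303, 0.595 and 0.304 against 8.89, 7.07 and 7.94 CPM (adjusted p = 0.176). PH02Gene02552, with no description, had 0.253, 0 and 0.046 against 4.36, 2.59 and 3.72. PH02Gene22482 differed by 3.19 log2 units (adjusted p = 0.109). PH02Gene38674 had 0.522, 0.370 and 0.258 against 7.34, 0.656 and 1.98 CPM, a difference of 3.11 (adjusted p = 0.109) that was 1.78 without variant young 1.

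Spread within a group was small in typical young leaves, with a median SD of 0.13 log2 units over 26447 genes, and 0.21 in variant young leaves. Within other groups it was 0.15 to 0.36.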

How the data were processed

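One deposited table gives an estimated count and an FPKM value for each of 42520 genes in each library. The authors' tools are cutadapt, FastQC and Salmon, per the submitters' processing notes, which state no version. The genome build is not given in the sources used here. Coordinates are those of the deposited table. Per the labels' protocols, cDNA was made from poly(A) RNA in full length and amplified by PCR. No strand mark is described, and reads of overlapping genes or close copies may not be told apart. No molecular identifier is described either, so copies made by PCR may not be told from separate molecules.

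Counts were rounded and fitted in R 4.3.3 with edgeR 4.0.16 (robust quasi-likelihood, TMM, filterByExpr with minimum count 10 and minimum total 15), as 6 group means over 18 libraries with 12 residual degrees of freedom. Genes were called at an adjusted p under 0.05 over all 37595 tested. DESeq2 1.42.0 and limma 3.58.1 on log2(FPKM + 1) or log2(FPKM + 0.1) were alternatives.

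The region, the members of all 32 gene lists (matched on descriptions) and the early light-inducible family were chosen with earlier results of these data known, and lists were refined after the table was seen. The AAA-ATPase, glutathione S-transferase and raffinose lists were added after their called genes were seen. Genes named were drawn from the 30 called genes of smallest adjusted p with a protein name and, per list, from its calls, smallest raw p-values and highest FPKM. The 10 largest uncalled differences with groups apart at a mean of at least 100 counts were a further source. Not every gene that met the rule for lists is named. Other genes named were chosen for their roles or positions after their values were seen. A value of 0 may be a failed estimate.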

Additional observations from a re-analysis of the deposited data

Results flagged for a closer look

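For 20 of the 30 called genes of smallest adjusted p with a protein name, the difference between variant and typical leaves departed from its young value in immature leaves, and for 14 in mature leaves, 10 of them at both (edgeR interaction test, adjusted p under 0.05). These genes were chosen for their young difference, which the comparison subtracts, so shifts to smaller differences are favoured. Values below are the later log2 difference minus the young one.

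In immature leaves the difference moved down for F-box/kelch At1g80440-like (PH02Gene18986) by -4.48, PHYTOCHROME KINASE SUBSTRATE 1-like (PH02Gene32512) by -3.73, sugar transport protein 1-like (PH02Gene27077) by -3.46, cytochrome P450 71A1-like (PH02Gene10861) by -2.22 and RHG1A (PH02Gene10178) by -1.65. Smaller shifts down were those of alpha-galactosidase-like (PH02Gene36374, -1.47), protein phosphatase 2C 44 (PH02Gene16617, -1.23) and the RING zinc finger gene (PH02Gene06689, -0.68). Among lower genes of scaffold 14, protein phosphatase 2C 6 (PH02Gene28290, -1.81) and myosin-17 (PH02Gene11963, -0.86) fell further, while porin 3 (PH02Gene11984, 0.51) came closer to the typical level. The difference moved up for UGT706F7 (PH02Gene30860, 1.80), HIPP 35 (PH02Gene14236, 1.46), CDC48 homolog C (PH02Gene40334, 1.16), heme-binding protein 2-like (PH02Gene31978, 1.05), the galactosyltransferase of raffinose synthesis (PH02Gene11640, 0.99), PYL9-like (PH02Gene16833, 0.99), GSTU6 (PH02Gene34973, 0.91) and acyl-CoA oxidase 4 (PH02Gene40931, 0.65).

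In mature leaves it moved down for PHYTOCHROME KINASE SUBSTRATE 1-like (-3.37), alpha-galactosidase-like (-2.36), AAA-ATPase ASD (PH02Gene15766, -2.29), F-box/kelch At1g80440-like (-2.19), sugar transport protein 1-like (-1.90), heme-binding protein 2-like (-1.87), chlorophyllase-2 (PH02Gene23026, -1.41), the PR5-like receptor kinase (PH02Gene18749, -1.37), RHG1A (-1.36), cytochrome P450 71A1-like (-1.26) and protein phosphatase 2C 6 (-1.36). It moved up for AVT6A (PH02Gene11235, 2.10) and porin 3 (0.66). NAC35 (PH02Gene31596) gave -5.72 in immature and -6.61 in mature leaves, which depend on the prior count, since its typical young libraries are at 0.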

How the results depend on the processing

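All 70 genes kept their direction in 18 fits that each left out a library and in 11 other settings, and 3 (NAC100 PH02Gene17999, porin 3, NAC35) were called in all 18. The number called ranged from 5 to 163 in those 18 fits. It was 501 with DESeq2, 254 and 208 with limma on FPKM plus 1 or 0.1, 376 with FPKM plus 1 and no filter, 0 with near-alike libraries summed (smallest adjusted p 0.284) and 148 at an adjusted p under 0.1. Limma with FPKM plus 1 put 64.2% of calls on the higher side, and 60.9% with no filter, against 85.7%. Same-numbered young libraries correlated at 0.14, 0.07 and 0.02, with no such values for unlike numbers, so whether numbers pair them was not tested. The replicate block gave 50 calls, 46 of them shared, and 222 with only the 6 young libraries, 33 shared. Without the block those 6 libraries gave 88 calls, 22 shared. Genes whose difference departed from young leaves numbered 9883 for immature and 3746 for mature leaves, 7626 to 11999 and 2040 to 4623 with a library left out, 6426 for mature leaves with DESeq2, and 2040 and 281 with near-alike libraries summed. The cause of these shifts was not tested. The median of the scaffold 14 run lay between -0.72 and -0.58 in all settings. List medians moved by over 0.1 in 13 cases, among them NAC (0.50 to 0.19), WRKY (0.38 to 0.06) and AAA-ATPases (0.90 to 0.43) on FPKM plus 1, and changed sign in 6, all of lists with a median near 0. Near-alike summing, the non-robust fit and the other window sizes were chosen after seeing the data. Depth limits genes of few counts.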
